A study of Mus musculus with 8 samples.

Results

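The transcripts of 34 genes of homologous recombination and of the Fanconi anemia repair pathway were compared between EpCAM-positive cells of the mouse liver that carried a histone label and EpCAM-positive cells that did not. The 34 genes were taken by name, all 34 were found among the 46603 genes of the count table, and 24 of them held enough reads to be tested. Livers of 8-week-old mice that carried R26rtTA and H2B-EGFP, each heterozygous, were dissociated after doxycycline had been given from birth to postnatal day 5. Doxycycline switches on a fusion of histone 2B with EGFP, and each later division dilutes the label, so that cells that divided little stay green. EpCAM-positive, CD45-negative cells were sorted into EGFP-positive cells, the liver label-retaining cells (LLRCs), and EGFP-negative cells (non-LRC), with 1 library of each kind from each of 4 mice. Both groups thus carry the same transgenes and had the same treatment and age. The rtTA is driven from the ubiquitous Rosa26 locus, which does not restrict the label to a cell type. A cell that never took up the label is EGFP-negative like one that diluted it, and the study notes that hematopoietic cells can express the transgene without doxycycline. Values are given below in the order JV602, JV621, JV624 and JV6314, the names of the mice.

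Homologous recombination mends a double-strand break by copying the intact sister chromatid. Ends are first cut back to single strands, BRCA1, PALB2 and BRCA2 then act on the resected ends, and further proteins take part in the exchange of strands. The Fanconi core complex ubiquitinates FANCI and FANCD2 where a DNA crosslink blocks a replication fork, which calls in nucleases and again recombination. Both routes act mainly in S and G2 phase, and many of their genes are transcribed at low levels in tissues that divide little.

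The total counts were 7860021 to 9851819 in the LLRC libraries and 4670132 to 8056103 in the non-LRC libraries, and a level of 3 counts corresponded to 0.291 to 0.626 CPM (counts relative to the scaled size of the library). All 15 cholangiocyte markers of a fixed list passed the expression filter, and the mean of Epcam was 583.5 CPM in the 4 LLRC libraries and 551.0 CPM in the 4 non-LRC ones. Markers of other cell types were mostly lower in LLRCs, with adjusted p values of at least 0.0809 in edgeR's quasi-likelihood test, in which 5.16% of all genes tested had an unadjusted p below 0.05. The 12 endothelial markers summed to 29.5 to 55.9 CPM in LLRC and 185.5 to 624.2 CPM in non-LRC libraries, and all 9 that passed the filter, with Tek, Kdr, Clec4g, Flt1, Egfl7 and Eng leading, were lower in LLRCs at an unadjusted p below 0.05. Of 12 hepatocyte markers, 6 were (Cyp2e1, Tat, Apoa1, Cps1, Ass1 and Serpina1a), and the 12 summed to 2998 to 3460 CPM against 2227 to 6973 CPM. Alb, at means of 2336 and 2319 CPM, made up most of the LLRC sums. In the non-LRC libraries of JV624 and JV6314, which summed to 6973 and 6267 CPM, Alb stood at 2773 and 2786 CPM. Of the 5 mesenchymal markers tested, Lrat and Dcn were lower at that level, with log2 fold changes of -2.98 and -1.91, and the sum of the 10, 2281 to 9695 CPM against 3353 to 8737 CPM, was carried by Rgs5, at 6211 and 4177 CPM, the 1 of the 5 with a positive log2 fold change. Ptprc, the gene of the CD45 used to sort cells out, had 5, 34, 14 and 59 counts in LLRCs against 0, 0, 0 and 7 counts in non-LRC cells (log2 fold change 3.27, unadjusted p = 0.0468 in edgeR's test). The macrophage marker Adgre1 was read in 2 non-LRC libraries only, Cd3e, Cd79a and Nkg7 were at 0 in every library, and the 12 hematopoietic markers summed to 16.0 to 33.8 CPM in LLRCs and 21.5 to 38.8 CPM in non-LRC cells. The part of all these transcripts in the results below was not tested. Cftr was the 1 cholangiocyte marker past an unadjusted 0.05, at 148.7 CPM in LLRCs against 55.0 CPM. The non-LRC library of JV621 stood apart with 14234 genes read, against 16042 to 20430 in the other 7, and that of JV6314 held 1965 CPM of acinar transcripts against at most 23.5 CPM elsewhere, among which Cela1 was lower in LLRCs at an unadjusted p of 0.0493 in edgeR's test.

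Fewer of the repair genes were read in non-LRC than in LLRC libraries. LLRC libraries held at least 1 read of 33, 30, 31 and 29 of the 34 genes, and non-LRC libraries of 24, 19, 27 and 17. After all libraries had been thinned to the size of the smallest, the numbers were 32, 29, 31 and 28 in LLRCs against 24, 18, 26 and 17 in non-LRC cells. The groups did not overlap in either count, with the LLRC library of JV6314 and the non-LRC library of JV624 nearest to each other. The genes at large differed in the same direction, since 98.8% to 99.6% of the 13605 genes that passed the expression filter had a read in LLRC libraries and 84.5% to 98.6% in non-LRC libraries. Of the 24 members that passed it, 24, 23, 24 and 22 had a read in LLRC libraries and 21, 16, 21 and 15 in non-LRC libraries. Over all genes the groups overlapped, with 18488 to 20430 genes read in LLRC libraries and 14234 to 18930 in non-LRC libraries. In bulk libraries of sorted cells, fewer cells that use a gene and less of its RNA per cell cannot be told apart.

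**Figure D1:**
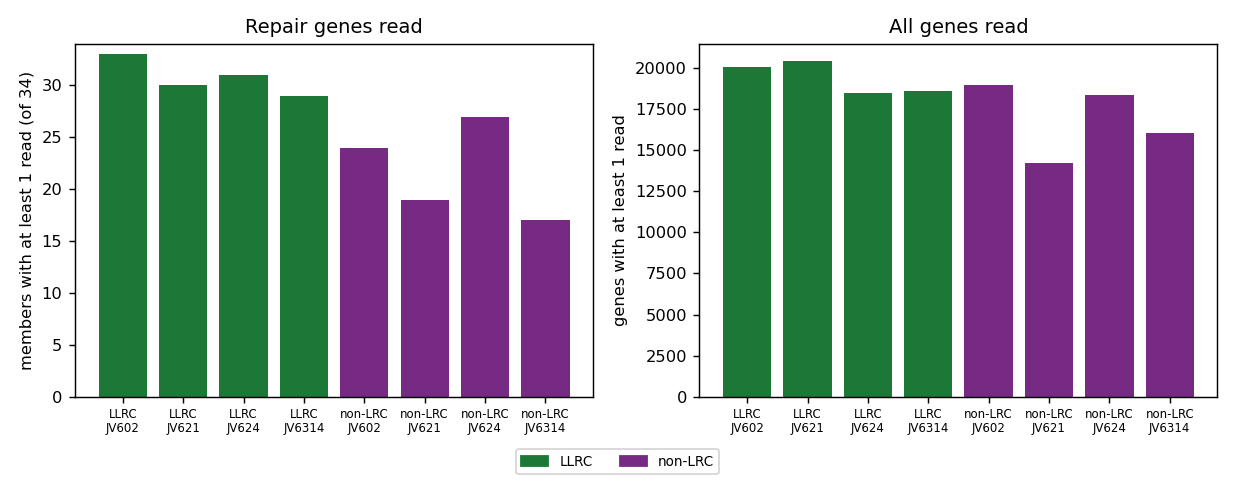
Bars give, for each of the 8 libraries, the number of the 34 repair genes with at least 1 read (left) and the number of all genes with at least 1 read (right), LLRC libraries in green and non-LRC libraries in purple. LLRC libraries held 29 to 33 of the 34 and non-LRC libraries 17 to 27, and the non-LRC library of JV621 held the fewest genes of all.

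Many of the repair genes were present in 1 library and absent from another of the same group. Of 33 members with at least 10 counts in an LLRC library, 8 (24.2%) had 0 counts in another LLRC library, where the share over all 16481 genes with such a count was 13.4%. Of 28 members with at least 10 counts in a non-LRC library, 16 (57.1%) had 0 counts in another non-LRC library, against 30.9% of 16191 genes. The tested members had a median of 5.70 CPM over the 8 libraries, below the 15.3 CPM of all genes tested. Their biological coefficient of variation, the relative spread between libraries beyond counting error, had a median of 0.861 against 0.576. A median member had 183 counts over the 8 libraries together. The part of this low level in the missing reads was not tested.

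Per kilobase of merged exons, Nbn was the highest member, at 15.6 ± 3.81 CPM per kilobase (SD, n = 4) in LLRCs against 9.63 ± 6.57 in non-LRC cells. Rad50, at 6.44 ± 1.82 and 4.20 ± 2.85 CPM per kilobase, and Rbbp8, at 5.55 ± 1.43 and 4.01 ± 3.96, came next over the 8 libraries together and did not differ from each other beyond their spread. Fancl, at 3.68 ± 1.74 and 5.49 ± 2.26 CPM per kilobase, followed and had the second highest mean in non-LRC cells, which lay within the spread of Rad50 and Rbbp8 there. Palb2 was the 27th of the 34 in this order and Fanci the last, with 4 counts in the 8 libraries together. The Atr level per kilobase may be understated, since its merged exons come to 23629 bases. Rad54l, Fanca, Fancc, Fancf, Fancl and Fanci share 10.5% to 16.4% of their exon bases with a gene on the opposite strand, and Rad54b shares 35.8% with Fsbp on its own strand. Reads in such stretches were left out by the counting, which used no strand, so that these 7 levels may be understated too.

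**Figure D2:**
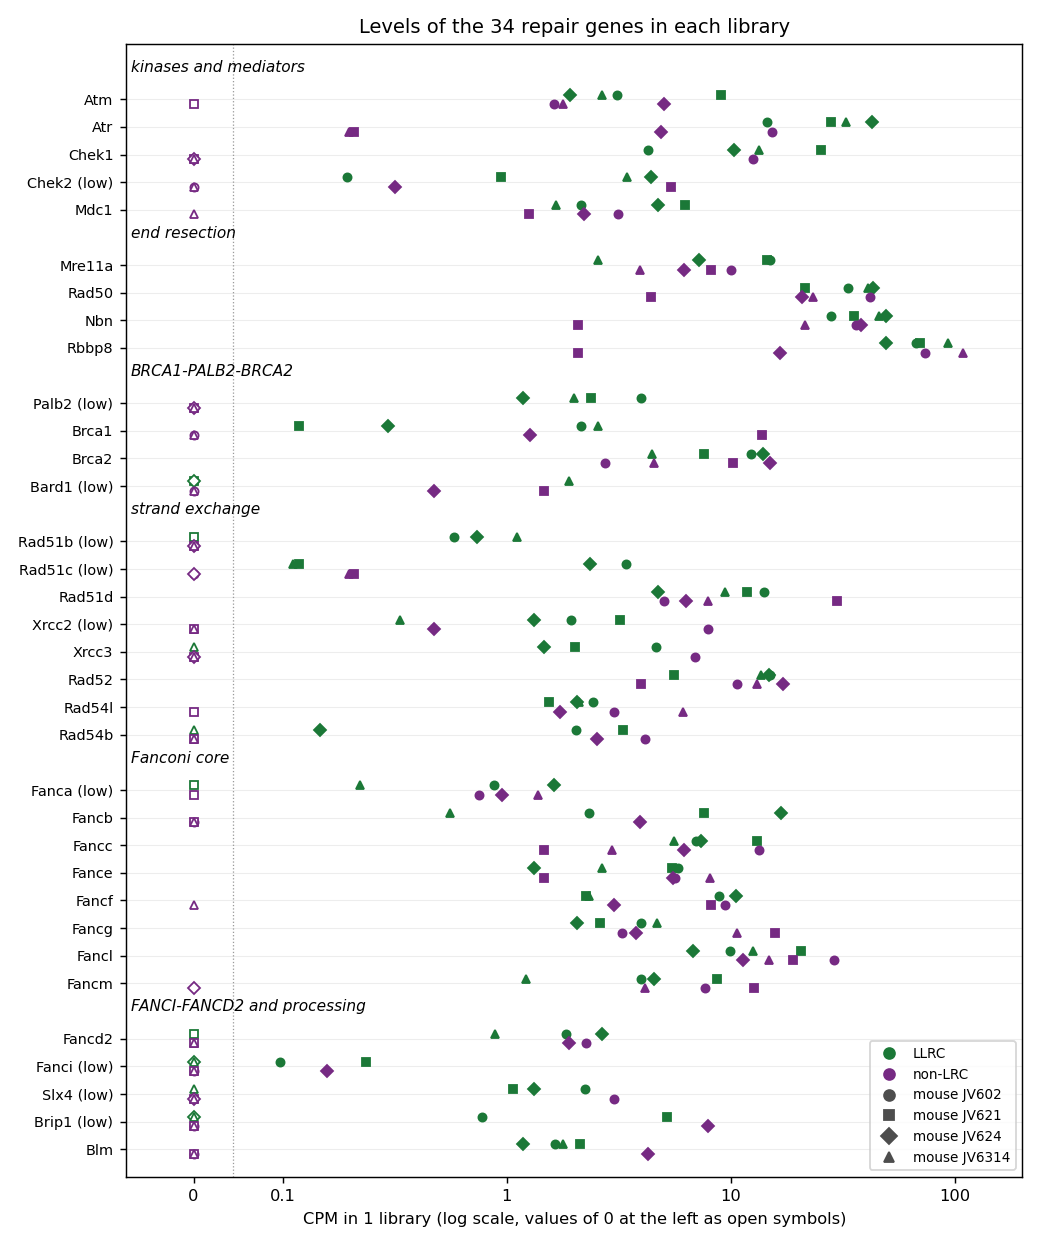
Each symbol is the level of 1 gene in 1 library, in CPM on a log axis, with values of 0 drawn as open symbols at the left. LLRC libraries are green, non-LRC libraries purple, the symbol shape names the mouse, and "(low)" marks the 10 genes that did not pass the expression filter. Palb2 is the row in which the 4 green symbols all lie above 0 and the 4 purple ones at 0.

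No member passed the quasi-likelihood test between the groups. By this test of edgeR, 0 of the 24 members tested had an adjusted p below 0.05, as had 0% of the 13605 genes tested, and 0 had an unadjusted p below 0.05, where 5.16% of the genes tested did. Of the 24, 16 had a positive log2 fold change of LLRC over non-LRC and 8 a negative one. Their median was 0.28, beside -0.015 for all genes tested. It was 0.80 with the mouse as a block, 0.68 without the non-LRC library of JV602 and 0.14 without the LLRC library of JV602. The standard errors of the members tested had a median of 0.96 against 0.56 over all genes. A difference of 1 on the log2 scale was thus about the size of 1 standard error for a typical member. Within mice, 17 of the 34 were higher and 16 lower in the LLRC library in JV602, 22 and 9 in JV621, 21 and 13 in JV624, and 19 and 10 in JV6314. The share over all genes was not counted, so these numbers cannot be set against genes at large. Over the 24 tested, the median within-mouse log2 difference was -0.11, 2.16, 0.23 and 0.39 in that order, beside 0.014, 0.32, -0.032 and 0.096 over all genes tested, so that JV602 showed the lowest and JV621, whose non-LRC library read the fewest genes, showed the highest.

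**Figure D3:**
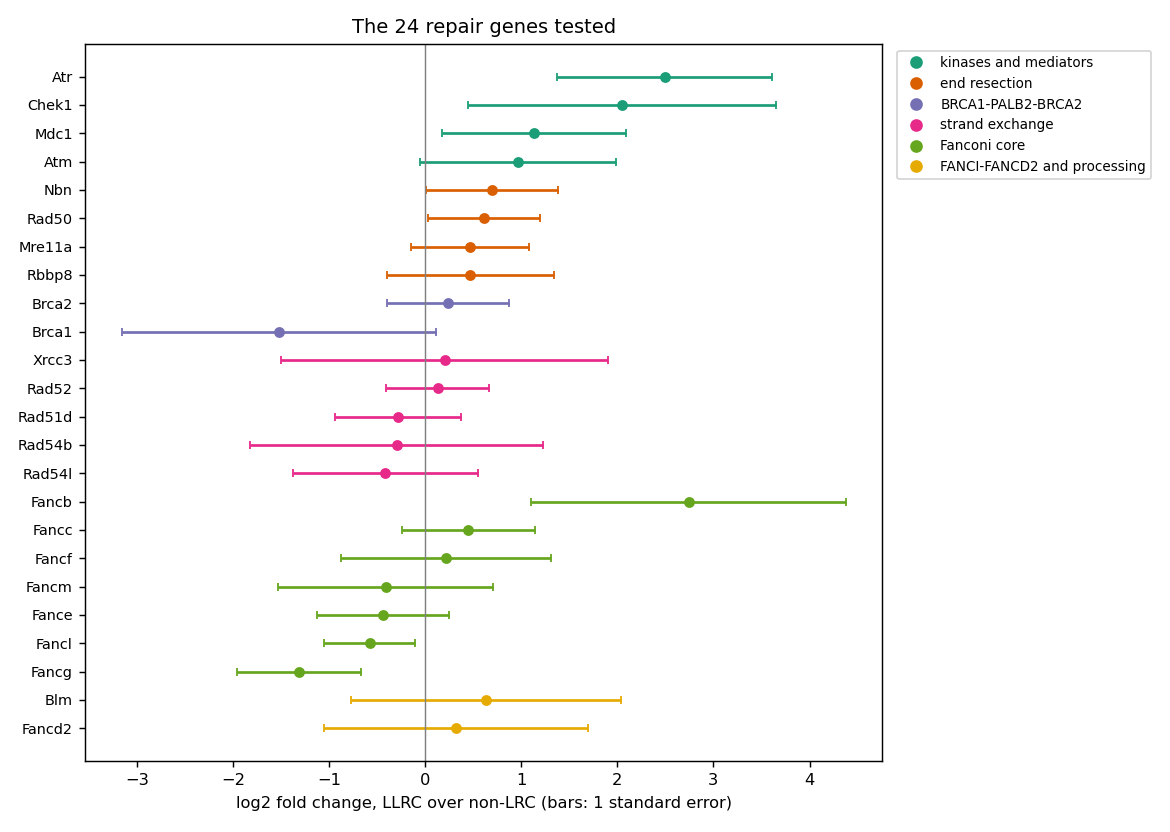
Points give the log2 fold change of LLRC over non-LRC for the 24 repair genes tested, with bars of 1 standard error, coloured by functional group. All 8 genes tested of the kinase and end resection groups lie to the right of 0 (Atm at -0.13 without mouse JV621), Fancb has the largest value at 2.74 and Brca1 the lowest at -1.52, and no gene passed the test. Those of the kinase group reached the level of the expression filter in every LLRC library but not in every non-LRC library.

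Among the 6 functional groups, the checkpoint kinases and their mediators had the largest ratio of LLRC to non-LRC means. ATR responds to single-stranded DNA at stalled forks and activates CHK1, the product of Chek1, while ATM responds to double-strand breaks, activates CHK2 and works through the scaffold MDC1. The summed level of the 5 genes was 24.2, 69.3, 64.0 and 53.7 CPM in LLRCs against 32.6, 6.89, 12.5 and 1.97 CPM in non-LRC cells. Only the pair of JV602 ran the other way. The 4 of them that were tested all had positive log2 fold changes, from 0.97 to 2.49, though that of Atm, the lowest, turned to -0.13 without mouse JV621 and was 0.28 without its LLRC library. All 4 reached the level of the expression filter in every LLRC library but not in every non-LRC library, so the shared sign is not independent of the filter.

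Atr (chr9:95857597-95951781, plus strand, GRCm38) stood at 14.5, 27.9, 42.6 and 32.6 CPM in LLRCs against 15.3, 0.209, 4.89 and 0.197 CPM in non-LRC cells. In JV621 and JV6314 the non-LRC library held 1 read each, where the LLRC library held 236 and 294. The groups overlapped through JV602 alone, whose non-LRC library lay just above its LLRC library. The log2 fold change came to 2.49 with a standard error of 1.12, the unadjusted p = 0.0525 and the adjusted p = 0.962 in edgeR's quasi-likelihood test, and an exact two-sided permutation test over the libraries gave p = 0.0571. With the mouse as a block, 2 members had an unadjusted p below 0.05, where 4.18% of all genes tested did. These were Atr, with a log2 fold change of 4.02 (unadjusted p = 0.0392), and Fancb, with 4.60 (unadjusted p = 0.0157), and their adjusted p in that edgeR fit was 1.0 and 0.922.

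Chek1 (chr9:36708482-36727065, minus strand) had 44, 213, 70 and 120 counts in LLRCs against 100, 0, 0 and 0 counts in non-LRC cells. The 3 non-LRC libraries at 0 belong to the mice in which Atr was also low, and the library of JV602 was again the one that lay among the LLRC values, at 12.5 CPM. Its log2 fold change was 2.05 (standard error 1.60, adjusted p = 1.0 in edgeR's test), and with the mouse as a block it was 6.08 (unadjusted p = 0.0573, adjusted p = 1.0). Without the non-LRC library of JV602 the fit gave 9.59, which depends on the prior count since the other 3 are at 0. Mdc1, at 2.13, 6.27, 4.71 and 1.66 CPM in LLRCs against 3.13, 1.25, 2.21 and 0 CPM in non-LRC cells, was higher in the LLRC library of 3 of 4 mice, with JV602 the exception. Atm had 0 to 5.05 CPM in non-LRC libraries and 1.91 to 8.99 CPM in LLRC libraries, and Chek2, which did not pass the filter, had reads in all 4 LLRC libraries and in 2 non-LRC libraries.

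With each library left out in turn, 0 to 5 members had an unadjusted p below 0.05 in edgeR's test. The 5 arose without the non-LRC library of JV602, as 5 of 26 members tested (19.2%) beside 8.72% of 14109 genes, and were Chek1, Palb2, Atr, Xrcc3 and Fancg, of which Fancg alone was lower in LLRCs. That library held all non-LRC reads of Chek1 and Xrcc3 and most of those of Atr, and Palb2 entered that fit by its LLRC reads alone, so that the count describes what the library holds and is no support for a difference. Its endothelial sum, 185.5 CPM, was the lowest of the 4 non-LRC libraries, and the part of this in its likeness to LLRCs was not tested.

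**Figure D4:**
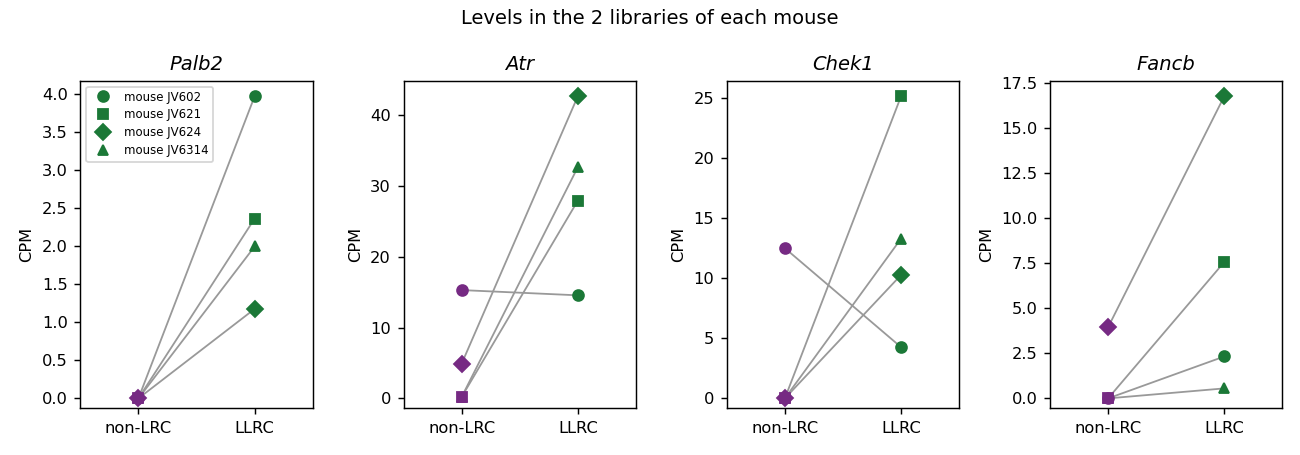
Levels of Palb2, Atr, Chek1 and Fancb in CPM on linear axes that include 0, with a line joining the 2 libraries of each mouse, non-LRC at the left and LLRC at the right. Palb2 and Fancb are higher in the LLRC library of all 4 mice, and Atr and Chek1 in that of 3, with JV602 as the exception.

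End resection is opened by the complex of MRE11, RAD50 and NBS1, the product of Nbn, together with CtIP, the product of Rbbp8. These 4 genes summed to 143.0, 141.0, 148.2 and 182.0 CPM in LLRCs against 161.7, 16.7, 81.5 and 157.1 CPM in non-LRC cells. The LLRC libraries lay close together, while the non-LRC libraries spread from 16.7 to 161.7 CPM. Rad50 had 33.2, 21.4, 43.1 and 40.8 CPM in LLRCs against 41.8, 4.38, 20.8 and 23.3 CPM in non-LRC cells (log2 fold change 0.61, standard error 0.58). Nbn had 28.0, 35.5, 49.0 and 46.0 CPM in LLRCs against 36.3, 2.09, 37.9 and 21.3 CPM in non-LRC cells (log2 fold change 0.70, standard error 0.69). Both were higher in the LLRC library of 3 of 4 mice, again without JV602, and the groups overlapped. Rbbp8 had 48.97 to 92.7 CPM in LLRCs against 2.09 to 108.5 CPM in non-LRC cells, with the lowest value in JV621 and the highest in JV6314. Mre11a had the smallest spread of the 4 in non-LRC libraries, at 7.07 ± 2.61 CPM, and stood at 9.81 ± 6.00 CPM in LLRCs (SD, n = 4).

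**Figure D5:**
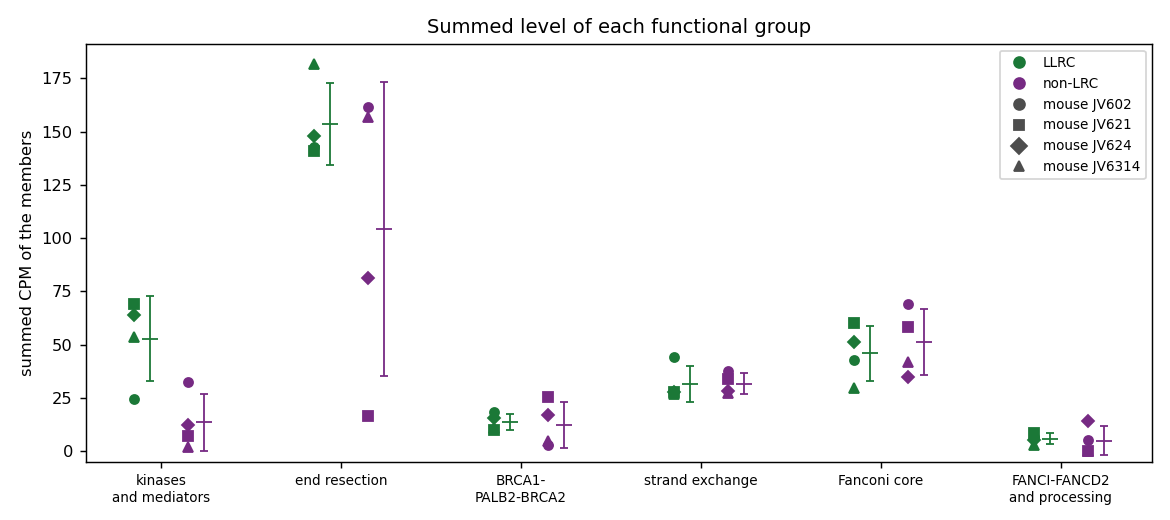
Summed CPM of the members of each functional group in each library, LLRC in green and non-LRC in purple with the symbol shape naming the mouse, beside the mean and SD of the 4 libraries. The kinases and mediators averaged 52.8 CPM in LLRCs against 13.5 CPM in non-LRC libraries, and the means of the strand exchange group lay nearly equal.

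Palb2 was the member whose groups did not overlap. It encodes the partner that holds BRCA1 and BRCA2 together at resected ends, and it lies at chr7:122107262-122132985 on the minus strand of GRCm38. Its reads came to 41, 20, 8 and 18 in LLRCs, and all 4 non-LRC libraries were at 0. At the LLRC mean of 2.38 ± 1.17 CPM (SD, n = 4), the non-LRC libraries would hold 19.0, 11.4, 15.1 and 12.1 counts. Against a floor of 3 counts in each non-LRC library, the mean was at least 4.60-fold higher in LLRCs. The exact two-sided permutation test gave p = 0.0286, the smallest that 4 against 4 libraries allow. Any gene whose groups do not overlap gets this p, so it adds nothing to the lack of overlap. The permutation test also leaves the mice out of account, and exchange within the 4 mice could give no p below 0.125.

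Palb2 was left out of the test by the filter on low counts. Without that filter, 4 of the 34 members had an unadjusted p below 0.05 in the quasi-likelihood test, 11.8% against 6.68% of all 27591 genes with a read. These were Palb2 (unadjusted p = 0.00113, adjusted p = 0.325), Rad51b (unadjusted p = 0.023), Atr (unadjusted p = 0.0311) and Rad51c (unadjusted p = 0.0371), all of them higher in LLRCs. The shares lay nearer to each other when genes needed 1 CPM in 2 libraries to be kept (2 of 32 members, beside 6.5% of all genes, the 2 being Palb2 and Rad51c, which passed by their LLRC libraries alone), by DESeq2 (2 of 24, beside 7.54%) and by limma (1 of 24, beside 6.51%), and in the exact test of edgeR without a filter 4 of 34 were beside 4.56%. By the exact test of edgeR, run on all genes with a read, Palb2 had an adjusted p of 0.00305, and it was the 1 member among the 0.112% of genes that this test called higher in LLRCs. Of all genes with a read, 1.59% had LLRC values that all lay above the non-LRC values, 1.15% had the reverse, which 0 members showed, and 0.323% had reads in all LLRC libraries and in no non-LRC library. Palb2 was among the genes that the study chose from these same libraries, so its values here are not independent evidence of its direction.

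The promoter window of Palb2, from 250 bases before to 50 bases after the RefSeq start (chr7:122132897-122133196 of GRCm38.p6, minus strand, 5′ to 3′), is shown because the neighbouring gene Dctn5 starts within it on the other strand. Capitals mark the letters CCAAT on either strand, here read as ATTGG.
Palb2: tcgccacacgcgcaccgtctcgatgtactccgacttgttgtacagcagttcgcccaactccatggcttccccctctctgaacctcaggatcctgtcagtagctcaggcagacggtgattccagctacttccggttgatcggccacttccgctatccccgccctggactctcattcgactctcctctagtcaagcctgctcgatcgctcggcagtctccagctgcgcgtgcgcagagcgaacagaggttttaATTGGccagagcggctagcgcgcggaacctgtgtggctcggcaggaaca
Dctn5, which encodes a subunit of the dynactin motor complex, starts 56 bases from the Palb2 start in the annotation and had 854, 713, 764 and 861 counts in LLRCs against 764, 386, 418 and 622 counts in non-LRC cells. It was thus read in every library in which Palb2 was at 0, and its log2 fold change was 0.039 (standard error 0.27). The Palb2 exons share 5.64% of their bases with Gm16326 on the opposite strand, which had 0 counts in all libraries.

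The partners of PALB2 did not share its pattern. Brca1, whose protein promotes resection and recruits PALB2, had 22, 1, 2 and 23 counts in LLRCs against 0, 66, 8 and 0 counts in non-LRC cells. The mice split in pairs, with LLRCs higher in JV602 and JV6314 and lower in JV621 and JV624, and the log2 fold change of -1.52 (standard error 1.64) turned to 1.59 without the non-LRC library of JV621. Brca2, a tumor suppressor gene of this route, was read in all libraries, at 12.3, 7.57, 14.0 and 4.44 CPM in LLRCs against 2.76, 10.2, 15.0 and 4.54 CPM in non-LRC cells. The values of Brca2 overlapped throughout, and the log2 fold change was 0.24 (standard error 0.63). Bard1, the ubiquitin ligase partner of BRCA1, was read in the LLRC library of JV6314 and in the non-LRC libraries of JV621 and JV624 and was at 0 in the other 5.

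Of the strand exchange genes, Rad51b had 6, 0, 5 and 10 counts in LLRCs against 0 in all non-LRC libraries. Its LLRC mean of 0.607 CPM was at least 1.17-fold higher than the level of 3 counts in each non-LRC library, and the exact permutation p was 0.143. Rad51c, with 35, 1, 16 and 1 counts in LLRCs against 0, 1, 0 and 1 counts in non-LRC cells, was high in the LLRC libraries of JV602 and JV624 only. Rad51d, at 14.1, 11.8, 4.71 and 9.44 CPM in LLRCs against 5.01, 29.6, 6.31 and 7.89 CPM in non-LRC cells, overlapped between the groups. Xrcc3 had 48, 17, 10 and 0 counts in LLRCs against 55, 0, 0 and 0 counts in non-LRC cells. Xrcc2 likewise had its highest value in the non-LRC library of JV602, at 7.89 CPM, and was at 0 in 2 of the other 3.

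Rad52, whose protein anneals single strands, had 14.9, 5.56, 14.8 and 13.7 CPM in LLRCs against 10.6, 3.97, 17.1 and 13.0 CPM in non-LRC cells. The 2 libraries of a mouse lay near each other, with JV621 low in both groups, and the log2 fold change was 0.13 (standard error 0.54). Rad54l and Rad54b, which encode motor proteins of strand exchange, had log2 fold changes of -0.41 and -0.30, both within 1 standard error of 0. As a group the 8 strand exchange genes summed to 31.5 ± 8.35 CPM in LLRCs against 31.7 ± 4.90 CPM in non-LRC cells (SD, n = 4).

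The 8 genes of the Fanconi core complex summed to 45.8 ± 12.8 CPM in LLRCs against 51.1 ± 15.6 CPM in non-LRC cells (SD, n = 4), and of the 7 tested 3 had positive and 4 negative log2 fold changes. Fancb, an X-linked gene whose protein forms a module with FANCL, the ubiquitin ligase of the complex, had 24, 64, 114 and 5 counts in LLRCs against 0, 0, 25 and 0 counts in non-LRC cells. It was higher in the LLRC library of all 4 mice, though the LLRC values of JV602 and JV6314 lay below the non-LRC value of JV624. Its log2 fold change was 2.74 (standard error 1.64, adjusted p = 1.0 in edgeR's test), with all of its non-LRC reads in 1 library. Fancg pointed the other way, at 3.97, 2.60, 2.06 and 4.66 CPM in LLRCs against 3.26, 15.7, 3.79 and 10.7 CPM in non-LRC cells, which gave -1.32 on the log2 scale (standard error 0.64, unadjusted p = 0.0709 in edgeR's quasi-likelihood test). Fancl was likewise lower in the LLRC library in 3 of 4 mice, with 6.76 to 20.5 CPM in LLRCs against 11.4 to 28.9 CPM in non-LRC cells (log2 fold change -0.58, standard error 0.47). Thus Fancb and Fancl, of the same module, had fold changes of opposite sign, of which neither passed the test and the difference between them was not tested.

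Fancc, Fance, Fancf and Fancm, with log2 fold changes from -0.44 to 0.45, overlapped between the groups, and Fanca did not pass the filter with at most 11 counts in a library. Of the ubiquitinated pair and the genes that act after it, Fancd2 had 19, 0, 18 and 8 counts in LLRCs against 18, 0, 12 and 0 counts in non-LRC cells. Both libraries of JV621 lacked it and those of JV602 were nearly equal. Blm, the helicase that dissolves joined chromatids, had 17, 18, 8 and 16 counts in LLRCs against 0, 0, 27 and 0 counts in non-LRC cells, so that a single non-LRC library held all of its reads there. Its log2 fold change was 0.63 (standard error 1.40), and it was 3.52 with the mouse as a block, 2.60 by limma and 6.67 without that library, the last against libraries at 0. Brip1, another helicase, rested mostly on 44 counts in the LLRC library and 50 in the non-LRC library of JV621 and JV624, respectively, and the nuclease scaffold Slx4 on 24 counts of the non-LRC library of JV602 and 9 to 23 counts of 3 LLRC libraries.

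Other genes of these pathways were read from a list of 59, of which 50 passed the filter. None of the 50 had an unadjusted p below 0.05 in edgeR's quasi-likelihood test, against 5.16% of all genes tested, and the median log2 fold change was 0.14, with 31 positive and 19 negative values. The lowest p values belonged to Usp1, the deubiquitinase of FANCD2 and FANCI, at 37.3 ± 15.5 CPM in LLRCs against 19.8 ± 10.1 CPM in non-LRC cells (SD, n = 4), and to Wrn, a RecQ helicase, at 20.9 ± 4.71 and 9.87 ± 8.25 CPM. These differences were smaller than the sum of the spreads. Gen1, a resolvase, was at 0 in every library. The 11 end-joining genes, which mend breaks without a template, all passed the filter, with 0 at an unadjusted p below 0.05 and a median of 0.46.

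Genes of S and G2/M phase, in which recombination is used, were compared beside the set. Of 30, 16 passed the filter, and their median log2 fold change was -0.035. Pbk, a mitotic kinase that is also among the genes the study chose from these libraries, had 17, 35, 25 and 27 counts in LLRCs against 0 in every non-LRC library (unadjusted p = 0.000291, adjusted p = 0.116 in edgeR's test), and so passed the filter by its LLRC libraries alone. It was the 1 of the 16 past an unadjusted 0.05, and 8 of the 16 had positive and 8 negative log2 fold changes. Of the 14 that did not pass the filter, 7 had a higher and 6 a lower mean in LLRCs, and 1 was at 0 in every library. Among them were Mki67, a proliferation marker, with 29, 28, 0 and 12 counts in LLRCs against 0, 1, 4 and 0 counts in non-LRC cells, and Ccne1, a cyclin of S phase entry, with 1, 0, 0 and 0 counts against 0, 2, 0 and 29. The summed level of the 30 was 211.3 to 259.3 CPM in LLRCs against 166.4 to 311.3 CPM in non-LRC libraries. Of 18 genes of the p53 response, 15 passed the filter, and Fas, a death receptor, at 10.7 CPM in LLRCs against 33.6 CPM in non-LRC cells, was the 1 gene past an unadjusted 0.05 (unadjusted p = 0.0325, adjusted p = 0.893 in edgeR's test), where 5.16% of all genes tested were. Cdkn1a, the p53 target that arrests the cycle, stood at 0.55 on the log2 fold scale, with a standard error of 0.53.

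Many members begin close to another gene. A protein-coding gene starts on the opposite strand within 1000 bases for 12 of the 34 (35.3%), and for 2346 of 21547 protein-coding genes (10.9%). Among these pairs are Brca1 with Nbr1, Atm with Npat, Chek2 with Hscb, Fancd2 with Emc3 and Fancb with Mospd2. Emc3, which starts 30 bases from Fancd2, had 427 to 853 counts in LLRCs against 227 to 691 counts in non-LRC cells, and was thus read in the 3 libraries in which Fancd2 was at 0. Nbr1, at 51.6 ± 7.37 CPM in LLRCs against 98.2 ± 49.9 CPM in non-LRC cells (SD, n = 4), was at -0.93 on the log2 fold scale (unadjusted p = 0.0318, adjusted p = 0.883 in edgeR's test), and was the 1 of the 11 neighbours tested past an unadjusted 0.05. Of the 11, 4 had positive and 7 negative log2 fold changes, from -1.41 for Ankrd49 beside Mre11a (unadjusted p = 0.0508 in edgeR's test) to 0.82 for Npat, and Mospd2 had -0.62. Mospd2 and Fancb thus had fold changes of opposite sign from starts 217 bases apart.

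Promoter windows were found for 27 of the 34 members in a RefSeq table of GRCm38.p6, and not for Rad51d, Nbn, Rbbp8, Fancd2, Xrcc2, Rad50 and Rad54b. E2F factors drive many genes of DNA replication, and letters of their sites (TTTCCCGC, TTTCGCGC, TTTGCCGC or TTTGGCGC on either strand) stood in the windows of 6 members, Bard1, Brca2, Chek2, Fancg, Mdc1 and Rad51c, or 22.2%. Of the 27025 genes in the table, 2.6% had them. CCAAT, on either strand, was found in 66.7% of the members and 41.1% of all genes, and TTTGAA, the letters of the cell cycle homology region, in 7.41% of the members and 20.2% of all genes. None of these strings overlaps another in the 4 windows printed. The table holds non-coding genes as well, so that the comparison is not between like genes, and a match of letters is not a bound site.

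The windows of Brca2 (chr5:150522371-150522670, plus strand), Atr (chr9:95857347-95857646, plus strand) and Chek1 (chr9:36726609-36726908, minus strand) are shown 5′ to 3′ as examples of a member with an E2F-type string, in capitals, and of 2 kinases that were higher in the LLRC library of the same 3 mice and whose windows hold none of the strings searched.
Brca2: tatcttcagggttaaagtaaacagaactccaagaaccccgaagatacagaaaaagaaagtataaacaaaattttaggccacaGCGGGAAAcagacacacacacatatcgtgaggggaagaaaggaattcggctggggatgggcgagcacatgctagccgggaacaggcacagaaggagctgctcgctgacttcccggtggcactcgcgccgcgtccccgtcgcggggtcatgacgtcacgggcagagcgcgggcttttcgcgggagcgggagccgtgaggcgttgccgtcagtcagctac
Atr: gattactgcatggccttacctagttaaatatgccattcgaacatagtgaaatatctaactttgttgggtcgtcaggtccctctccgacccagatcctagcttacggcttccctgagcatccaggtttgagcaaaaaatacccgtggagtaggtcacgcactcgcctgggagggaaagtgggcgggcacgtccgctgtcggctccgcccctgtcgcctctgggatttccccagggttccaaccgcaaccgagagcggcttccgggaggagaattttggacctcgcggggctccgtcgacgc
Chek1: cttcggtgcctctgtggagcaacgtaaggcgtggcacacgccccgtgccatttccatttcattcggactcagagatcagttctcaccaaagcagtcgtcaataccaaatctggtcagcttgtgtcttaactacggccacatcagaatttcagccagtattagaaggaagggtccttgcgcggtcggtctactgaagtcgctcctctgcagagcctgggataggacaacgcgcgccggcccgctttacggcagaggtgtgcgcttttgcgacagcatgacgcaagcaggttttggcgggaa
Only exact strings were counted, and the Chek1 window ends in tttggcgggaa, which differs from TTTGGCGC in the last letter of that string. Of the members with E2F-type letters, Brca2, Mdc1 and Fancg were tested, with log2 fold changes of 0.24, 1.13 and -1.32, and Bard1, Chek2 and Rad51c did not pass the filter.

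The genes whose level over the 8 libraries was most like that of Palb2 were sought among the 13605 genes tested. By Pearson's r of log2 CPM they were Panct2 (0.988), 6430590A07Rik (0.981), Fgr (0.965), Slc1a4 (0.963) and Rbl2 (0.961), over 8 libraries that share the division into LLRC and non-LRC. Panct2, Fgr and Slc1a4 are, like Palb2, in the list that the study chose from these libraries. Fgr, a kinase of the SRC family, had 41, 19, 24 and 39 counts in LLRCs against 0 in all non-LRC libraries, and Slc1a4, an amino acid transporter, had 44, 24, 29 and 20 counts in LLRCs and likewise 0. Rbl2, which encodes p130, a pocket protein that is abundant in quiescent cells, had 785, 680, 383 and 609 counts in LLRCs against 300, 143, 204 and 126 counts in non-LRC cells. It was thus read in all non-LRC libraries, where each of the other 4 had at most 2 counts in any. In edgeR's quasi-likelihood test of LLRC against non-LRC, the adjusted p of these genes ran from 0.0809 for Panct2 to 0.275 for Rbl2. Since the likeness to Palb2 chose these genes, their values are a description and no independent evidence of a difference.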

How the data were processed

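RNA of sorted liver cells was sequenced from 4 mice, with an LLRC and a non-LRC library from each, paired by the mouse named in the titles. The authors had the reads mapped as a service (the aligner is not given in the sources used here) and counted them on the exons of Ensembl genes (GRCm38.p4) with HTSeq, using its union mode and no strand, which leaves out reads that overlap 2 genes. What they deposited are whole-number read counts for each gene, with no normalization. A second deposited table holds the authors' own edgeR 3.2.4 comparison (fold changes and p-values) and was not used.

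Genes that passed filterByExpr were scaled by TMM and tested with edgeR 4.0.16 (quasi-likelihood test, R 4.3.3), in a model of the group alone with Benjamini-Hochberg adjustment over the 13605 genes tested, at a threshold of 0.05. The standard errors given with this test are the size of the log2 fold change divided by the square root of its F statistic. They were derived in this way and not estimated by the model. CPM uses the TMM-scaled library size, log2 values a prior count of 2, and floors 3 counts per library, which cover counting error only. DESeq2 1.42.0, limma 3.58.1 and edgeR's exact test served as alternatives, beside other filters and scalings, thinning, and each library or mouse left out. The limma fit used sample quality weights, so that libraries did not count equally in it. Exact permutation tests were two-sided over the 8 libraries, with a smallest p of 0.0286. The fits were tested on simulated data. The 2 libraries of a mouse share an animal and were therefore treated as a pair in the blocked alternative. Their deviations from the group means correlated at 0.003 to 0.171. Libraries of different mice are separate animals.

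Symbols, coordinates and merged exons were taken from GENCODE M21 for GRCm38, which gave a symbol for 46005 of the 46603 identifiers, and promoters from RefSeq for GRCm38.p6. Members and lists were chosen with earlier results of these data known. All 34 members are accounted for. Values in every library are given for members with an unadjusted p below 0.05, with non-overlapping groups or with 0 in 1 whole group, and for 1 or more of each role, and other lists name genes past an unadjusted 0.05, at most 6 a list by smallest p. Genes with a start near a member and Usp1, Wrn, Gen1, Mki67, Ccne1, Cdkn1a, Epcam, Alb, Rgs5, Adgre1, Cd3e, Cd79a and Nkg7 were named after their values were seen.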

Additional observations from a re-analysis of the deposited data

Results flagged for a closer look

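In 15 of the 68 groups of 4 values (34 genes in LLRCs and in non-LRC cells), 1 library lay far from the other 3 (22.1%), in that its gap to the nearest of them took more of the whole range than Dixon's critical value allows. Chance gives about 1 in 20 for normally distributed values, which counts with many values at 0 are not, and the share over all genes with a read was 25.4%. Among the groups of the 24 members tested it was 16.7%, beside 7.96% of those of all genes tested. In non-LRC cells, the library of JV602 stood high for Chek1 (12.5 CPM), Xrcc2 (7.89 CPM), Xrcc3 (6.89 CPM) and Slx4 (3.01 CPM). That of JV621 stood high for Rad51d (29.6 CPM), Brca1 (13.8 CPM) and Chek2 (5.43 CPM). That of JV624 stood high for Brip1 (7.89 CPM), Blm (4.26 CPM), Fancb (3.95 CPM) and Fanci (0.158 CPM, a single read). In LLRCs, the library of JV621 was high for Atm (8.99 CPM) and Brip1 (5.20 CPM) and low for Rad52 (5.56 CPM), and that of JV6314 was high for Bard1 (1.89 CPM). For Chek1, Xrcc3, Slx4, Brip1, Blm, Fancb and Fanci the other 3 non-LRC libraries were at 0.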

How the results depend on the processing

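No member passed an adjusted 0.05 in 21 of the 22 alternatives, and 1 did, Palb2, in the exact test of edgeR run without a filter. Over all genes the count moved from 0 to 11 without a filter, 127 in that exact test, 221 by DESeq2, and 0 to 6 with 1 library or mouse left out, where the 6 arose without the non-LRC library of JV602. Members at an unadjusted p below 0.05 were 0 as reported, 4 without a filter (11.8%, beside 6.68% of all genes), 2 with at least 1 CPM in 2 libraries (6.25% beside 6.5%), 2 by DESeq2 (Atr and Fancg, 8.33% beside 7.54%), 1 by limma (Atr, 4.17% beside 6.51%), 4 in the exact test (11.8% beside 4.56%), 2 with the mouse as a replicate block (Atr and Fancb, 8.33% beside 4.18%) and 0 to 5 with 1 library or mouse left out. The block changed no call at the adjusted threshold. The median log2 fold change of the members tested, 0.28, lay between 0.14 (without the LLRC library of JV602) and 0.80 (block) over the alternatives, with 0.68 without the non-LRC library of JV602, 0.51 by limma and 0.51 after thinning.

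Of 24 members tested, 12 kept their direction in every alternative that gave them a value, which was all 22 for 10 of them and 21 for Fancb (not fitted without mouse JV624) and Blm (not fitted after thinning): Fancb, Fance, Fancg, Fancl, Blm, Atr, Chek1, Mre11a, Rad50, Nbn, Rbbp8 and Mdc1. Over all alternatives their log2 fold changes ranged from 1.80 to 8.67, -0.95 to -0.0062, -1.69 to -0.58, -0.92 to -0.20, 0.12 to 6.83, 2.05 to 4.21, 1.13 to 9.77, 0.20 to 0.80, 0.25 to 1.10, 0.32 to 1.12, 0.078 to 1.27 and 0.65 to 1.81 in that order, and the highest values of Fancb, Blm and Chek1 were fitted against non-LRC libraries all at 0. The log2 fold change turned for Brca1 (limma 1.15, block 0.60), Rad51d (limma 0.56), Rad52 (library size only -0.025, limma -0.25), Rad54l (block 0.26), Fancd2 (limma -1.14) and Fancm (limma 1.40). With 1 library or mouse left out the ranges were -2.49 to 1.96 for Brca1, -0.22 to 0.71 for Brca2, -0.76 to 0.66 for Rad51d, -0.60 to 6.89 for Xrcc3, -0.14 to 0.41 for Rad52, -0.81 to 0.34 for Rad54l, -1.56 to 0.64 for Rad54b, -0.18 to 1.26 for Fancc, -0.20 to 1.00 for Fancd2, -0.39 to 0.80 for Fancf, -0.90 to 0.23 for Fancm and -0.13 to 2.08 for Atm. The cause was not tested. At 3 counts per library, levels under 0.291 to 0.626 CPM could not be told from 0.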
